A study of Mus musculus with 11 samples.

Results

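The genes described here are the 3 D cyclins (*Ccnd1*, *Ccnd2*, *Ccnd3*) and 7 inhibitors of cyclin-dependent kinases (CDKs), the CIP/KIP genes *Cdkn1a*, *Cdkn1b* and *Cdkn1c* and the INK4 genes *Cdkn2a*, *Cdkn2b*, *Cdkn2c* and *Cdkn2d*. They were chosen by name, as 10 of the 55536 genes counted in each of 11 RNA-seq libraries, and all 10 passed the filter on low counts. The cells came from the epidermis of dorsal skin of male CD4Cre R26-tdT mice on the C57Bl6/N background, aged 29 weeks (replicate 1) or 32 weeks (replicates 2 and 3), with the cells of 2 mice pooled in each library. Every group, the tdTneg groups included, carried both alleles. Cre driven by *Cd4* turns on the reporter tdT in cells that express *Cd4* and in all their descendants, T cells among them, so that tdT marks a lineage and not present expression of *Cd4*. The sorted groups were tdT+CD49f+CD34+ (n = 3) and tdTneg CD49f+CD34+ cells (n = 3), both sorted as SCA-1neg, and tdT+CD49f+CD34+SCA-1+ (n = 3) and tdTneg CD49f+CD34+SCA-1+ cells (n = 2). CD49f is an integrin of basal keratinocytes, CD34 marks the hair follicle bulge, and SCA-1 (encoded by *Ly6a*) marks the infundibulum and the basal interfollicular epidermis (IFE). The 2 CD49f+CD34+ groups are called CD34+ cells below, and the 2 CD49f+CD34+SCA-1+ groups SCA-1+ cells.

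D cyclins bind CDK4 and CDK6 and carry growth signals into the cell cycle, since the active kinase phosphorylates Rb and frees the E2F transcription factors for DNA replication. INK4 proteins bind CDK4 and CDK6 and keep the D cyclins away, while CIP/KIP proteins bind whole cyclin-CDK complexes, above all those of CDK2. Bulge stem cells rest for most of the hair cycle, and basal cells of the IFE divide throughout life. Many of these proteins are controlled by phosphorylation and degradation, which mRNA levels do not show.

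Among the genes called between the populations were *Cdkn1a* and *Cdkn2b*, both higher in SCA-1+ cells, and *Cdkn1c*, lower in SCA-1+ cells, and stretches upstream of *Cdkn1a* and *Cdkn2b* are shown to give the letters near the starts of the genes that rose. RefSeq windows on GRCm38.p6, each of 300 bases from 250 before to 50 after a transcription start, matched 7 of the 10 genes in 11 windows. The genes without an entry were *Ccnd1*, *Ccnd2* and *Cdkn1c*. None of the printed stretches overlaps an annotated exon of its gene, and capitals mark matches to the motif named for each line. The first lies at chr17:29090909-29090968 before the upstream start of *Cdkn1a* (plus strand), the second at chr17:29093589-29093748 before its downstream start (plus strand), and the third at chr4:89311043-89311182 before *Cdkn2b* (minus strand, written 5′ to 3′ as transcribed).
*Cdkn1a* upstream start: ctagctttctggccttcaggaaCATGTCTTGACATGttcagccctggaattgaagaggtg
*Cdkn1a* downstream start: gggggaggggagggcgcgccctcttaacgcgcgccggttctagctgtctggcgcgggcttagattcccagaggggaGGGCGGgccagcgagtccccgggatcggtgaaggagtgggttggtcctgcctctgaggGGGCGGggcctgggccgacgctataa
*Cdkn2b*: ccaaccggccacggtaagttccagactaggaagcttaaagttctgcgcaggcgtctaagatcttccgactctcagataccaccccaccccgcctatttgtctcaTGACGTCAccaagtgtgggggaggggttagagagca

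Capitals in the first line mark CATG followed, after any 6 bases, by another CATG, the cores of a p53 response element at the spacing of adjoining decamers. Of all 32851 windows, 0.712% held it on either strand, and among the 11 windows of these genes it was in that of the upstream start of *Cdkn1a* alone. In the second line they mark GGGCGG, the GC box bound by Sp1, which 35.7% of all windows held. Windows of *Cdkn2a*, *Cdkn2b*, *Cdkn2c*, *Cdkn2d*, *Cdkn1b* and *Ccnd3* held it too, with 5 matches in that of *Cdkn2d*. In the third line capitals mark TGACGTCA, the cyclic AMP response element, chosen after the window was read and held by 1.79% of all windows. The E2F motif TTTCCCGC, in 1.07% of all windows, had a match in 1 window of *Cdkn2a* and in none of the other 10. All motifs were searched on both strands, none contains another, and a match describes the letters and not a bound site.

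Libraries held between 17409131 and 46542177 counts on genes. Keratinocyte markers were high throughout (2 of 3 called higher in SCA-1+ cells), the 6 bulge markers were all lower in SCA-1+ than in CD34+ cells and the 3 IFE markers all higher (*Ly6a* at 153 to 294 normalized CPM, counts scaled to the library total, in SCA-1+ and at 2.46 to 59.2 in CD34+ cells). In tdT+ SCA-1+ cells *Cd34* itself was low, at 22.3 to 35.7 CPM, against 320 to 383 in tdTneg SCA-1+ and 468 to 1130 in CD34+ cells, which makes the tdT+ SCA-1+ libraries the lowest in mRNA of the sorted marker. Markers of other cell types moved with the groups. All 8 T cell markers were called higher in SCA-1+ cells, and their summed level was 27.6 to 43.7 CPM in tdTneg and 81.0 to 108 in tdT+ CD34+ cells, 172 to 184 in tdTneg and 483 to 1165 in tdT+ SCA-1+ cells. The 6 endothelial markers summed to 1676 to 1789 CPM in tdTneg SCA-1+ cells, to 30.6 to 62.6 in tdT+ SCA-1+ cells and to 5.12 to 441 in CD34+ cells, with the highest of these in the library labelled tdT+CD49f+CD34+ replicate 2. Of the other lists, all 5 Langerhans cell markers were called higher in SCA-1+ cells, 3 of 5 melanocyte markers lower and 0 of 6 fibroblast markers in either direction. With the replicate number as a block the calls of *Nfatc1* (bulge), *Cd207* (Langerhans cell) and *Tyrp1* (melanocyte) were lost, that of *Tyrp1* also with the library labelled tdT+CD49f+CD34+ replicate 2 left out. No marker of these lists was at 0 in every library of a group. The files also hold 1 undescribed row that is no Ensembl gene. It had 133 to 307 CPM (of totals without TMM scaling) in 5 of the 6 tdT+ and 2.54 to 4.89 in the 5 tdTneg libraries. In the tdT+ library labelled CD49f+CD34+ replicate 2 it had 2.05 CPM (95% Wilson interval 1.49 to 2.83, counting error only). Values without that library are therefore given beside the calls of the 10 genes in comparisons that use it, and for related genes where its omission changed a call. In sorted bulk samples, fewer cells of a type and less RNA per cell cannot be told apart.

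Which of these genes carried most of the signal was read per exon length, as RPKM (normalized CPM per kilobase of the exons of a gene, all isoforms joined). In both CD34+ groups *Cdkn1b* (p27), an inhibitor tied to quiescence, came first, with 49.3 ± 16.8 RPKM in tdTneg and 41.6 ± 7.51 in tdT+ cells (SD, n = 3 each). *Cdkn1a* (p21), best known as a target of p53, followed with 26.6 ± 3.78 and 40.9 ± 11.6 RPKM (SD, n = 3 each). In tdT+ CD34+ cells the libraries of these 2 genes overlapped, and in tdTneg CD34+ cells they did not. In both SCA-1+ groups *Cdkn1a* came first, with 76.3 ± 5.58 RPKM in tdTneg (SD, n = 2) and 94.4 ± 16.8 in tdT+ cells (SD, n = 3), apart from the gene next in order. *Cdkn1b* was second in tdTneg SCA-1+ cells (37.3 ± 1.54 RPKM, SD, n = 2), while in tdT+ SCA-1+ cells *Ccnd2* was second (36.7 ± 9.82, SD, n = 3) and *Cdkn1b* at rank 3 (32.6 ± 4.14, SD, n = 3), with overlapping libraries. With the library labelled tdT+CD49f+CD34+ replicate 2 left out, the tdT+ CD34+ means of *Cdkn1b* and *Cdkn1a* were 43.3 and 36.2 RPKM (n = 2).

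The ratio of *Cdkn1a* to *Cdkn1b* RPKM within a library turned over between the populations. It was 0.447 to 0.746 in tdTneg and 0.770 to 1.32 in tdT+ CD34+ cells, and 1.89 to 2.22 in tdTneg and 2.46 to 3.14 in tdT+ SCA-1+ cells. The only CD34+ library above 1 was that labelled tdT+CD49f+CD34+ replicate 2. Of the summed RPKM of the 3 CIP/KIP genes, *Cdkn1a* made up 30.02 to 56.2% in CD34+ and 64.9 to 75.6% in SCA-1+ libraries. These ratios are descriptions and were not tested.

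*Ccnd2* (16.98 to 44.2 RPKM over all libraries), *Ccnd1* (13.8 to 30.7) and *Cdkn2d* (p19INK4d, 16.2 to 30.4) held ranks 3 to 5 in the other three groups, while in tdT+ SCA-1+ cells *Ccnd2* ranked above *Cdkn1b*. *Ccnd3* (4.80 to 7.99 RPKM), *Cdkn2c* (p18INK4c, 4.37 to 10.3) and *Cdkn2b* (p15INK4b, 1.14 to 11.8) were lower. Lowest were *Cdkn1c* (p57), an imprinted gene transcribed from the maternal allele, at 0.152 to 2.51 RPKM, and *Cdkn2a* at 0 to 1.89 RPKM. *Cdkn1c* ranked above *Cdkn2a* in the other three groups, but in tdT+ SCA-1+ cells *Cdkn2a* had the higher mean, with overlapping libraries. *Cdkn2b* stood at rank 9 in tdTneg CD34+ cells, below *Cdkn1c* with overlapping libraries, and at rank 6 in tdT+ SCA-1+ cells.

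**Figure D1:**
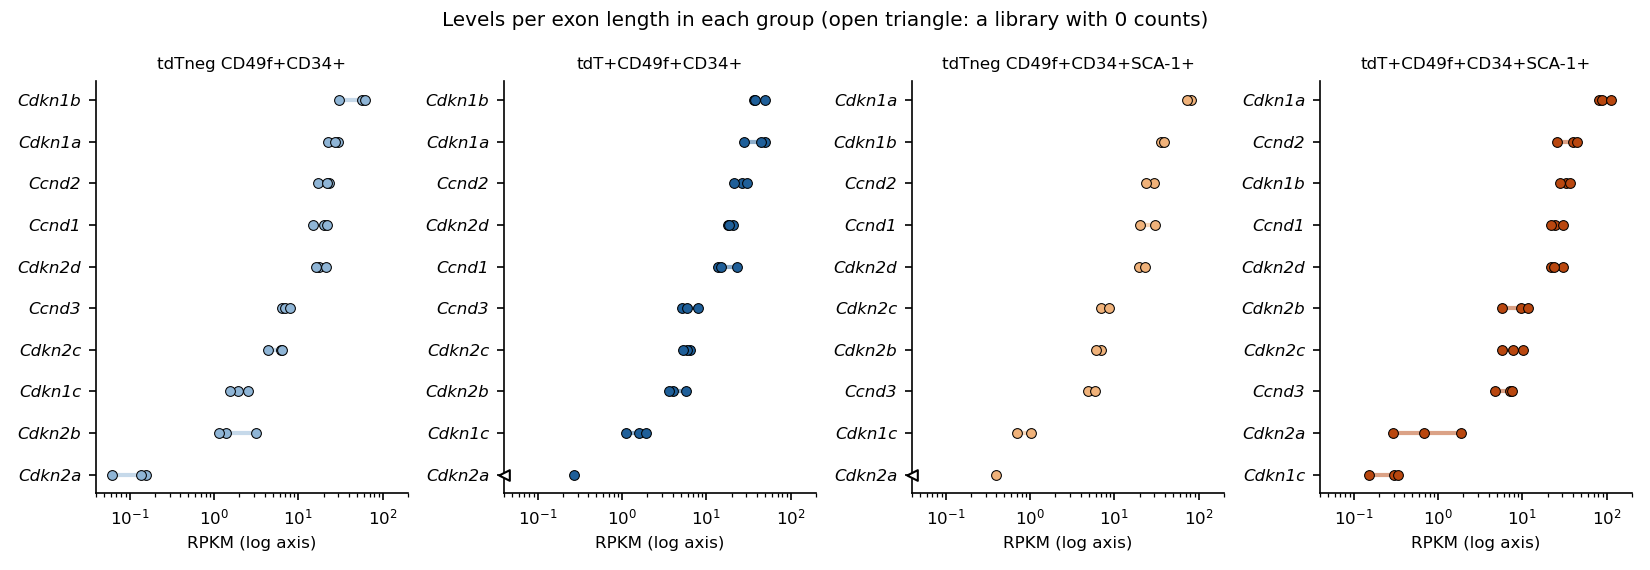
Levels per exon length (RPKM, log axis) of the 10 genes in each of the 4 sorted groups, ordered by group mean, with 1 point per library and a line over the range of a gene. Cdkn1b leads both CD34+ groups and Cdkn1a both SCA-1+ groups, at 72.3 to 113 RPKM, while an open triangle at the left edge stands for libraries of Cdkn2a with 0 counts.

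Between the populations the study compares cells sorted from the bulge gate with cells that also carry SCA-1. Taken as the mean over tdT status, 2 of the 10 genes were called higher (*Cdkn1a*, *Cdkn2b*) and 1 lower (*Cdkn1c*) in SCA-1+ cells, with a Benjamini-Hochberg adjusted p below 0.05 and a log2 fold change beyond 1 in size. Of all 20307 genes tested, 11.6% were called, 4.77% higher and 6.79% lower, while 1160 of 23859 were called without tdTneg CD49f+CD34+SCA-1+ replicate 1. The 11 libraries of 3 of the 10 genes, the same that were called, did not overlap between the populations, against 10.8% of all genes. An unadjusted p under 0.05 was reached by 7 of the 10 genes and by 34.4% of all genes. The median log2 fold change of the 10 was 0.44, and that of all genes -0.09.

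*Cdkn1a* had 106, 79.8 and 97.3 normalized CPM in the tdTneg CD34+ libraries and 99.5, 179 and 158 in the tdT+ CD34+ libraries. In SCA-1+ cells it had 285 and 257 CPM in the tdTneg and 289, 315 and 403 in the tdT+ libraries. Every SCA-1+ library was thus above every CD34+ library. The log2 fold change was 1.36 (SE 0.17, 95% interval 0.99 to 1.73, edgeR adjusted p = 0.000636), or 2.57-fold, and 1.45 when the library labelled tdT+CD49f+CD34+ replicate 2 was left out (edgeR adjusted p = 0.00077).

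The rise of *Cdkn1a* was called within each tdT status. Within tdT+ cells the log2 fold change was 1.21 (SE 0.22, edgeR adjusted p = 0.00803), or 1.38 with the library labelled tdT+CD49f+CD34+ replicate 2 left out (edgeR adjusted p = 0.0092), and within tdTneg cells 1.52 (SE 0.24, edgeR adjusted p = 0.0104). Summed T cell and IFE markers were higher in SCA-1+ than in CD34+ libraries within both tdT+ and tdTneg cells, as *Cdkn1a* was, the IFE markers with 911 to 3323 against 6573 to 8901 CPM in tdT+ and 166 to 1149 against 2713 to 6093 CPM in tdTneg cells. Summed endothelial markers were higher in SCA-1+ than in CD34+ libraries within tdTneg cells, and within tdT+ cells the 6 markers had values below 0 (median log2 fold change -1.94, 0 of 6 called). The latter rest on the library labelled tdT+CD49f+CD34+ replicate 2, with a sum of 441 CPM. Replicates 1 and 3 of that group had 58.6 and 5.12, and the tdT+ SCA-1+ libraries 30.6 to 62.6. The part of these markers in the value of *Cdkn1a* was not tested. The difference between both rises was not called (-0.31, SE 0.33, 95% interval -1.05 to 0.42, edgeR adjusted p = 0.761). Within tdT+ cells the call fell just under the fold threshold when tdT+CD49f+CD34+ replicate 1 was left out (0.99, edgeR adjusted p = 0.017), and within tdTneg cells it was lost when tdTneg CD49f+CD34+SCA-1+ replicate 1 was left out (1.43, edgeR adjusted p = 0.0953) and 1 library remained in that group.

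*Cdkn2b* encodes p15INK4b, an inhibitor of CDK4 and CDK6 that TGF-β signalling is known to induce. It had 4.36, 1.96 and 1.59 normalized CPM in the tdTneg CD34+ libraries and 8.07, 5.62 and 5.01 in the tdT+ CD34+ libraries. SCA-1+ cells had 9.65 and 8.46 CPM in the tdTneg and 8.10, 13.4 and 16.4 in the tdT+ libraries. The populations did not overlap, but the highest CD34+ library, tdT+CD49f+CD34+ replicate 1, was only just below the lowest SCA-1+ library. The log2 fold change was 1.40 (SE 0.32, 95% interval 0.68 to 2.12, edgeR adjusted p = 0.0154), or 2.64-fold, and 1.36 with the library labelled tdT+CD49f+CD34+ replicate 2 left out (edgeR adjusted p = 0.0331). With tdTneg CD49f+CD34+SCA-1+ replicate 1 left out the call was lost (1.34, edgeR adjusted p = 0.0711). Within tdT+ cells the value was 1.02 (SE 0.44, edgeR adjusted p = 0.148) and within tdTneg cells 1.78 (SE 0.48, edgeR adjusted p = 0.0599), neither of them called, although DESeq2 called the latter (1.86, adjusted p = 0.00369). T cell and IFE markers were higher in SCA-1+ cells as well, within both tdT+ and tdTneg cells. Of the Langerhans cell markers, 0 of 5 were called within tdT+ and 4 of 5 within tdTneg cells. Summed endothelial markers were at 1676 to 1789 CPM in tdTneg SCA-1+ and at 32.6 to 100.1 in tdTneg CD34+ libraries. The part of these markers in the value of *Cdkn2b* was not tested.

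*Cdkn1c* encodes p57, a CIP/KIP inhibitor tied to quiescent stem cells in several tissues. It went the other way from *Cdkn1a*. In CD34+ cells it had 3.88, 3.20 and 5.12 CPM in the tdTneg and 3.22, 2.30 and 3.97 in the tdT+ libraries, which rest on 43 to 210 counts per library. The tdTneg SCA-1+ libraries had 2.09 and 1.42 CPM, and the tdT+ SCA-1+ libraries 0.613, 0.681 and 0.310, the latter from 6 to 23 counts each. All SCA-1+ libraries were below all CD34+ libraries, and all tdT+ SCA-1+ libraries were below the other 8. The log2 fold change was -1.88 (SE 0.37, 95% interval -2.70 to -1.06, edgeR adjusted p = 0.00674), or 3.68-fold lower. It was -1.97 with the library labelled tdT+CD49f+CD34+ replicate 2 left out (edgeR adjusted p = 0.00871).

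Within tdT+ cells *Cdkn1c* was called lower (-2.55, SE 0.49, edgeR adjusted p = 0.00952, and -2.74 with the library labelled tdT+CD49f+CD34+ replicate 2 left out, edgeR adjusted p = 0.0141), and within tdTneg cells its value was -1.21 (SE 0.53, edgeR adjusted p = 0.23). The difference of both was not called (-1.34, SE 0.69, edgeR adjusted p = 0.47). The call between the populations was lost without tdTneg CD49f+CD34+SCA-1+ replicate 2 (-1.72, edgeR adjusted p = 0.0602). The summed level of the melanocyte markers was also lower in SCA-1+ cells (15.4 to 55.9 CPM) than in CD34+ cells (92.8 to 157 CPM), as was that of the bulge markers (3334 to 5424 against 8066 to 14990), and their part in the result was not tested.

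**Figure D2:**
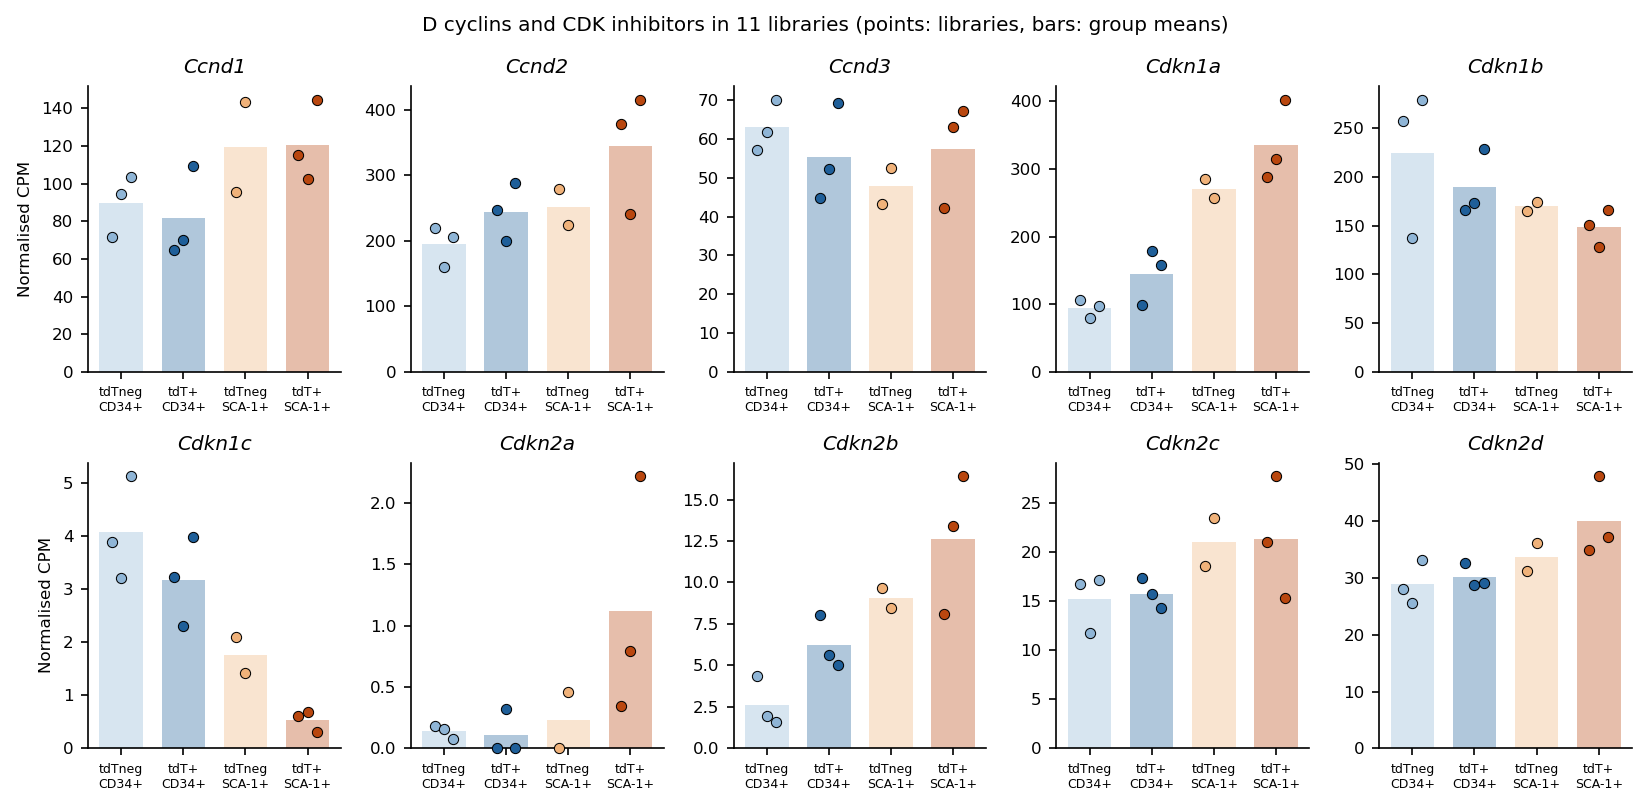
Normalised CPM of the 10 genes in each of the 11 libraries (points) with group means (bars), where CD34+ stands for CD49f+CD34+ and SCA-1+ for CD49f+CD34+SCA-1+ cells. Each panel has its own linear axis from 0, and the SCA-1+ points lie above all CD34+ points for Cdkn1a and Cdkn2b and below them for Cdkn1c.

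Among the D cyclins none was called between the populations. *Ccnd1* had a median of 83.0 CPM (64.9 to 109) in the 6 CD34+ and 115 (95.7 to 145) in the 5 SCA-1+ libraries, and the ranges overlapped. Its log2 fold change was 0.49 (95% interval 0.08 to 0.90, edgeR adjusted p = 0.0899). *Ccnd2* had a median of 213 CPM (160 to 288) and 279 (225 to 416), a log2 fold change of 0.43 (0.05 to 0.81, edgeR adjusted p = 0.105). *Ccnd3* had medians of 59.5 CPM (44.7 to 70.1) and 52.5 (42.2 to 67.1), and its value was -0.17 (-0.53 to 0.19, edgeR adjusted p = 0.492). The intervals of all 3 D cyclins therefore stay within a doubling in either direction, whereas those of the 3 called genes reach beyond it.

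As a share of the summed RPKM of the D cyclins, *Ccnd2* made up 38.5 to 58.2% in CD34+ and 39.6 to 58.0% in SCA-1+ libraries, *Ccnd1* 30.5 to 45.5% and 35.1 to 50.5%, and *Ccnd3* 11.3 to 15.97% and 6.91 to 13.2%. The shares overlapped for each of them. *Ccnd1* shares 1100 exonic bases with *LTO1* and *Ccnd3* shares 361 with *Bysl*, both on the opposite strand, and since the kit does not mark strand, reads there cannot be assigned to 1 gene. The same holds for 372 and 368 bases of *Ccnd2* (*Gm43126* and *9330179D12Rik*), 273 of the 3553 of *Cdkn1a* (*AC167363.2*) and 625 of the 2039 of *Cdkn1c* (*Gm44732*). The RPKM divide by the full exon length, these bases included.

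The remaining inhibitors changed less than *Cdkn1a*, *Cdkn1c* and *Cdkn2b*, or could not be read. *Cdkn1b* had a median of 201 CPM (137 to 279) in CD34+ and 165 (128 to 175) in SCA-1+ libraries, a log2 fold change of -0.38 (95% interval -0.79 to 0.04, edgeR adjusted p = 0.182). The tdTneg CD34+ libraries alone spanned nearly its whole range, at 258, 137 and 279 CPM. *Cdkn2c* had medians of 16.2 CPM (11.7 to 17.3) and 21.0 (15.3 to 27.7), a value of 0.45 (0.02 to 0.88, edgeR adjusted p = 0.126). *Cdkn2d* had medians of 29.0 CPM (25.5 to 33.1) and 36.1 (31.2 to 47.9), a value of 0.31 (0.03 to 0.60, edgeR adjusted p = 0.112).

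*Cdkn2a* encodes both p16INK4a and p19ARF, which a count per gene cannot separate. It had 9, 6 and 3 counts in the tdTneg and 0, 6 and 0 in the tdT+ CD34+ libraries. In SCA-1+ cells it had 0 and 11 counts in the tdTneg and 13, 14 and 43 in the tdT+ libraries. A count of 0 allows up to 0.136, 0.165 and 0.0949 CPM (3 counts, normalized) in the 3 libraries at 0, and the highest library, tdT+CD49f+CD34+SCA-1+ replicate 3, had 2.22 CPM. The populations overlapped, and the comparison was not called (edgeR adjusted p = 0.273). Within tdT+ cells the SCA-1+ libraries (0.346 to 2.22 CPM) lay above the CD34+ libraries (at most 0.321), as 30.4% of all genes did not overlap there, and this was not called (edgeR adjusted p = 0.222). The text gives no fold change because several libraries were at or near the limit of 3 counts. The figures of fold changes and the medians over the 10 genes include *Cdkn2a*.

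**Figure D3:**
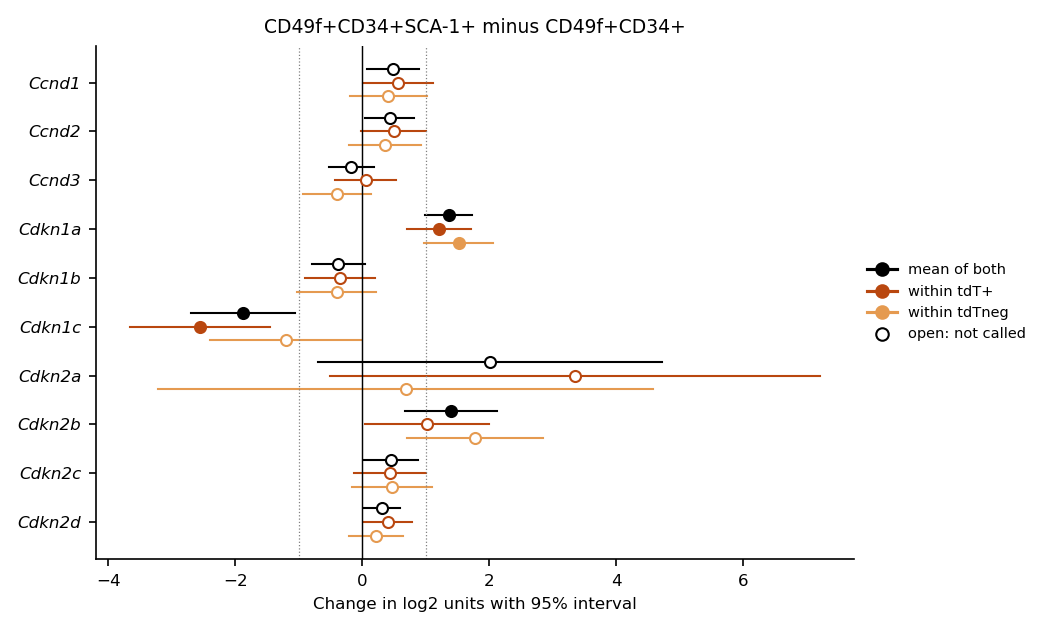
Log2 fold change from CD34+ to SCA-1+ cells with its 95% interval for each gene, as the mean over tdT status (black) and within tdT+ and tdTneg cells. Filled points were called and dotted lines mark the fold threshold of 1, and Cdkn1a is filled in all 3 comparisons (1.36, 1.21 and 1.52).

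Within tdT+ cells 2 of the 10 genes were called in all (*Cdkn1a* and *Cdkn1c*), against 8.45% of all genes, and within tdTneg cells 1 (*Cdkn1a*), against 4.74%. The latter share rests on few libraries, since 55 of 23859 genes tested were called without tdTneg CD49f+CD34+SCA-1+ replicate 1. The 2 comparisons use different libraries. Over the 10 genes the median log2 fold change was 0.47 within tdT+ and 0.39 within tdTneg cells, and over all genes it was -0.07 and -0.13. *Ccnd1* had 0.57 and 0.41, *Ccnd2* 0.50 and 0.37, and *Cdkn2d* 0.41 and 0.22 within tdT+ and tdTneg cells, none of them called.

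Between tdT+ and tdTneg cells of the same population, none of the 10 genes was called by edgeR. In CD34+ cells 0 were called against 0.00985% of all genes (2 genes, or 4 with the replicate number as a block), and 2 had an unadjusted p under 0.05 against 8.42% of all genes. These were *Cdkn1a* (0.62, 95% interval 0.13 to 1.12, edgeR adjusted p = 0.492) and *Cdkn2b* (1.24, 0.26 to 2.22, edgeR adjusted p = 0.486). The tdT+ libraries of *Cdkn2b* (5.01 to 8.07 CPM) were all above the tdTneg libraries (1.59 to 4.36 CPM), and those of *Cdkn1a* overlapped. Marker levels lay in the same direction, with the summed T cell markers at 81.0 to 108 CPM in tdT+ and 27.6 to 43.7 in tdTneg CD34+ cells. An unadjusted p under 0.05 for a higher level in tdT+ cells was reached by 6 of 8 T cell, 3 of 3 IFE and 4 of 5 Langerhans cell markers, none of them called, and their part in the values of *Cdkn1a* and *Cdkn2b* was not tested. With the library labelled tdT+CD49f+CD34+ replicate 2 left out, the values were 0.44 for *Cdkn1a* (edgeR adjusted p = 0.727) and 1.31 for *Cdkn2b* (edgeR adjusted p = 0.633). DESeq2 called 0 of the 10 genes there as well, against 332 of all 20307 genes. That library, which had the highest *Cdkn1a* of the 6 CD34+ libraries, also had the highest summed IFE markers (3323 CPM, against 166 to 1813 in the other 5), Langerhans cell markers (347 against at most 133) and endothelial markers (441 against 5.12 to 100.1), and their part in the value of *Cdkn1a* was not tested.

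In SCA-1+ cells 0 were called against 2.31% of all genes (470 genes, but 97 without tdTneg CD49f+CD34+SCA-1+ replicate 2), and 1 had an unadjusted p under 0.05, *Cdkn1c*, against 14.6% of all genes. With 0.310 to 0.681 CPM in tdT+ and 1.42 to 2.09 in tdTneg cells its libraries did not overlap (-1.71, SE 0.52, 95% interval -2.86 to -0.55, edgeR adjusted p = 0.144), and DESeq2 called it (-1.75, adjusted p = 0.0299). Endothelial markers were far higher in the tdTneg than in the tdT+ SCA-1+ libraries, and T cell markers the reverse, and their part in the value of *Cdkn1c* was not tested. *Cdkn1a* had 0.31 (-0.25 to 0.86) and *Ccnd2* 0.45 (-0.12 to 1.03) in the same comparison. The effect of tdT differed between the populations for 0 of the 10 genes by edgeR and by DESeq2. Of all genes edgeR called 0.389% and DESeq2 772 of 20307. An unadjusted p under 0.05 by edgeR was reached by 12.4% of all genes and by 0 of the 10.

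**Figure D4:**
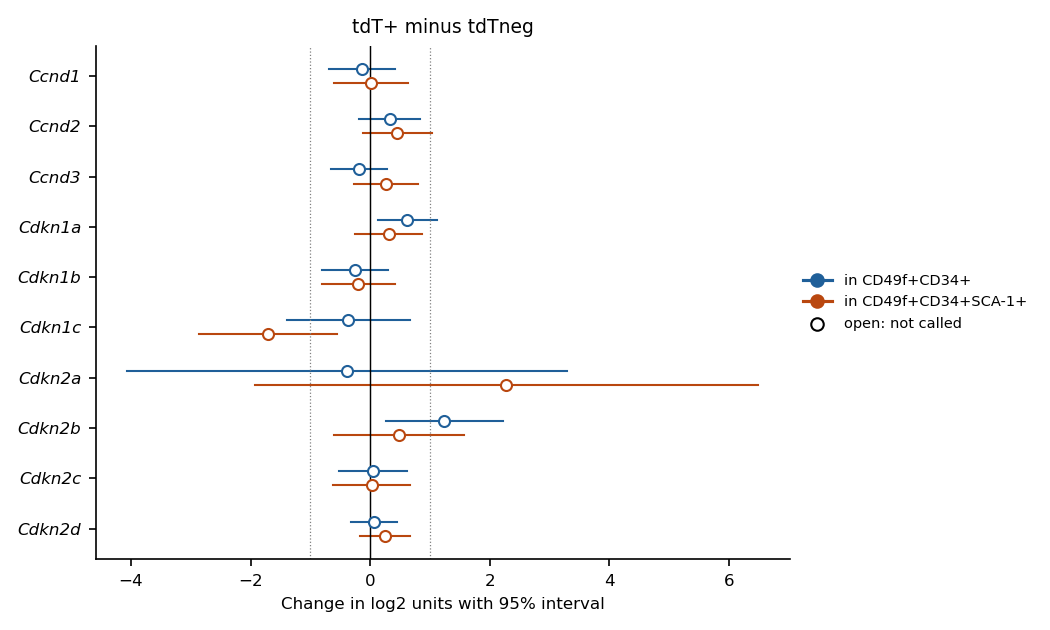
Log2 fold change of tdT+ against tdTneg cells with its 95% interval for each gene, drawn apart for the CD34+ and the SCA-1+ populations. All points are open because none was called by edgeR, and Cdkn1c in SCA-1+ cells (-1.71) and Cdkn2b in CD34+ cells (1.24) lie farthest from 0 among the intervals that exclude it.

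The genes around the D cyclins and inhibitors were read from 7 lists of 72 genes in all. Of 8 genes of the G1 kinases and cyclin E, 1 was called between the populations, against 11.6% of all genes. *Cdk6*, which pairs with the D cyclins, had 39.4 to 62.0 CPM in CD34+ and 75.2 to 133 in SCA-1+ libraries, with no overlap (1.004, SE 0.13, edgeR adjusted p = 0.000971), and fell just under the fold threshold with the replicate number as a block (0.96, edgeR adjusted p = 0.000614). *Cdk6* was also called within tdT+ cells (1.15, edgeR adjusted p = 0.00358), with the block as well (1.16), and not within tdTneg cells. Its relative *Cdk4* had medians of 154 and 145 CPM and a value of -0.05 (edgeR adjusted p = 0.836). None of 11 genes of Rb and the E2F factors was called, and E2F2, an activator of S-phase genes, came nearest to the fold threshold from below (*E2f2*, 0.93, SE 0.18, edgeR adjusted p = 0.00578) and was called within tdT+ cells (1.01, SE 0.24, edgeR adjusted p = 0.0232), though not with the library labelled tdT+CD49f+CD34+ replicate 2 left out (0.93, edgeR adjusted p = 0.0695). None of 8 genes for the turnover of D cyclins and inhibitors was called, but *Fbxw7*, a ubiquitin ligase subunit that targets cyclin E, was called within tdT+ cells (1.01, SE 0.17, edgeR adjusted p = 0.00467), though not with that block (0.99, edgeR adjusted p = 0.00713).

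Of 12 genes of p53 and its targets other than *Cdkn1a*, 3 were called higher and 0 lower, against 4.77% and 6.79% of all genes, and their median log2 fold change was 0.01, against -0.09 over all genes. *Gadd45a*, a stress sensor that also binds PCNA, rose from 9.30 to 19.1 CPM in CD34+ to 20.5 to 69.2 in SCA-1+ libraries (1.34, SE 0.21, edgeR adjusted p = 0.00233), and was called within both tdT+ (1.40) and tdTneg cells (1.27), the latter not with the library labelled tdT+CD49f+CD34+ replicate 2 left out (1.27, edgeR adjusted p = 0.0553). *Eda2r*, a receptor of ectodysplasin A2, was higher by 1.48 (SE 0.25, edgeR adjusted p = 0.00312) with overlapping libraries. It was called within tdTneg cells (2.72), where it had 2.50 to 2.76 CPM in CD34+ and 17.3 to 17.8 in SCA-1+ libraries, and not within tdT+ cells (0.23, edgeR adjusted p = 0.688), where it had 3.63 to 8.78 and 6.13 to 8.15 CPM. The difference of tdT effects was called for 0 of the 12 genes, with a lowest value of -2.50 and a smallest edgeR adjusted p of 0.0711. The tdTneg SCA-1+ libraries, in which *Eda2r* was highest, were also those with 1676 to 1789 CPM of endothelial markers, whose part in the value was not tested. *Sesn2*, a stress gene that restrains mTORC1, was higher by 1.02 (SE 0.23, edgeR adjusted p = 0.0133), and its call within tdT+ cells (1.10, edgeR adjusted p = 0.0462) was lost with the replicate number as a block (1.04, edgeR adjusted p = 0.0675). Others of the list had values below 0, such as *Sesn1* (-0.67, edgeR adjusted p = 0.00998) and *Phlda3* (-0.58, edgeR adjusted p = 0.0375), or near 0, such as *Mdm2* (-0.05), which encodes the ligase that degrades p53. *Trp53* itself had 0.25 (edgeR adjusted p = 0.123).

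Polycomb complexes keep the *Cdkn2a* and *Cdkn2b* loci silent in many cells. Of 14 genes for Polycomb proteins and H3K27 enzymes, 2 were called lower and 0 higher in SCA-1+ cells, against 6.79% and 4.77% of all genes. *Cbx8* fell from 18.7 to 28.2 CPM in CD34+ to 6.61 to 11.2 in SCA-1+ libraries (-1.50, SE 0.16, edgeR adjusted p = 0.00035), and was called within both tdT+ (-1.67) and tdTneg cells (-1.34). *Cbx6* fell by 1.29 (SE 0.20, edgeR adjusted p = 0.00225) with overlapping libraries. It was called lower within tdT+ cells (-1.85, edgeR adjusted p = 0.00249), also with the replicate number as a block (-1.84), and not within tdTneg cells. It was also called lower in tdT+ than in tdTneg SCA-1+ cells (-1.55, SE 0.29, edgeR adjusted p = 0.0236), a call lost with that block (-1.58, edgeR adjusted p = 0.0519). *Ezh2*, the H3K27 methyltransferase, had a value of 0.47 (edgeR adjusted p = 0.0203) and was under the fold threshold. Of 3 FOXO genes, which encode activators of *Cdkn1b*, none was called, with *Foxo3* at -0.66 (edgeR adjusted p = 0.00808) and *Foxo1* at 0.40 (edgeR adjusted p = 0.0365).

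Of 16 proliferation genes, 2 were called higher and 0 lower in SCA-1+ cells, against 4.77% and 6.79% of all genes. An unadjusted p under 0.05 for a higher level was reached by 14 of the 16 and by 14.7% of all genes, and the median log2 fold change was 0.85, against -0.09 over all genes. The number called higher was 7 with the library labelled tdT+CD49f+CD34+ replicate 2 left out and 0 with the replicate number as a block. Over tdT status 8 of 8 T cell and 5 of 5 Langerhans cell markers were also called higher, and 3 of 5 melanocyte markers lower. Their part in the values of the proliferation genes was not tested. *Ccnb1*, which encodes the mitotic cyclin B1, had 4.12 to 6.98 CPM in CD34+ and 8.39 to 16.2 in SCA-1+ libraries (1.01, SE 0.24, edgeR adjusted p = 0.0169), and *Ccnb2* had a value of 1.01 (SE 0.31, edgeR adjusted p = 0.049). *Mki67* (0.95, edgeR adjusted p = 0.013) was just under the fold threshold, and within tdT+ cells 2 of the 16 were called, against 8.45% of all genes in either direction. These were *Ccnb1* (1.23, SE 0.32, edgeR adjusted p = 0.0353) and *Top2a* (1.07, SE 0.30, edgeR adjusted p = 0.0441), and each of them stayed called in 3 of 11 omissions of 1 library. With the library labelled tdT+CD49f+CD34+ replicate 2 left out *Ccnb1* had 1.32 there (edgeR adjusted p = 0.0642). Within tdTneg cells 0 of the 16 were called, with 14 values above 0 and a median of 0.57. Libraries did not overlap for 2 of the 16 over tdT status (10.8% of all genes), for 9 within tdT+ (30.4% of all genes) and for 10 within tdTneg cells (46.3% of all genes). With the replicate number as a block neither *Ccnb1* (0.98, edgeR adjusted p = 0.0287) nor *Ccnb2* (0.84, edgeR adjusted p = 0.030) passed the fold threshold over tdT status, while within tdT+ cells *Ccnb2* (1.23, edgeR adjusted p = 0.0271) and *Ccna2* (1.53, edgeR adjusted p = 0.0186) were then called. Between tdT+ and tdTneg CD34+ cells no gene of these 7 lists was called by edgeR, and 0 of the 16 proliferation genes had an unadjusted p under 0.05 for a higher and 2 for a lower level in tdT+ cells, against 4.56% and 3.86% of all genes. In that comparison 0 of the 16 values were above 0, and their median log2 fold change was -0.43, against -0.03 over all genes.

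**Figure D5:**
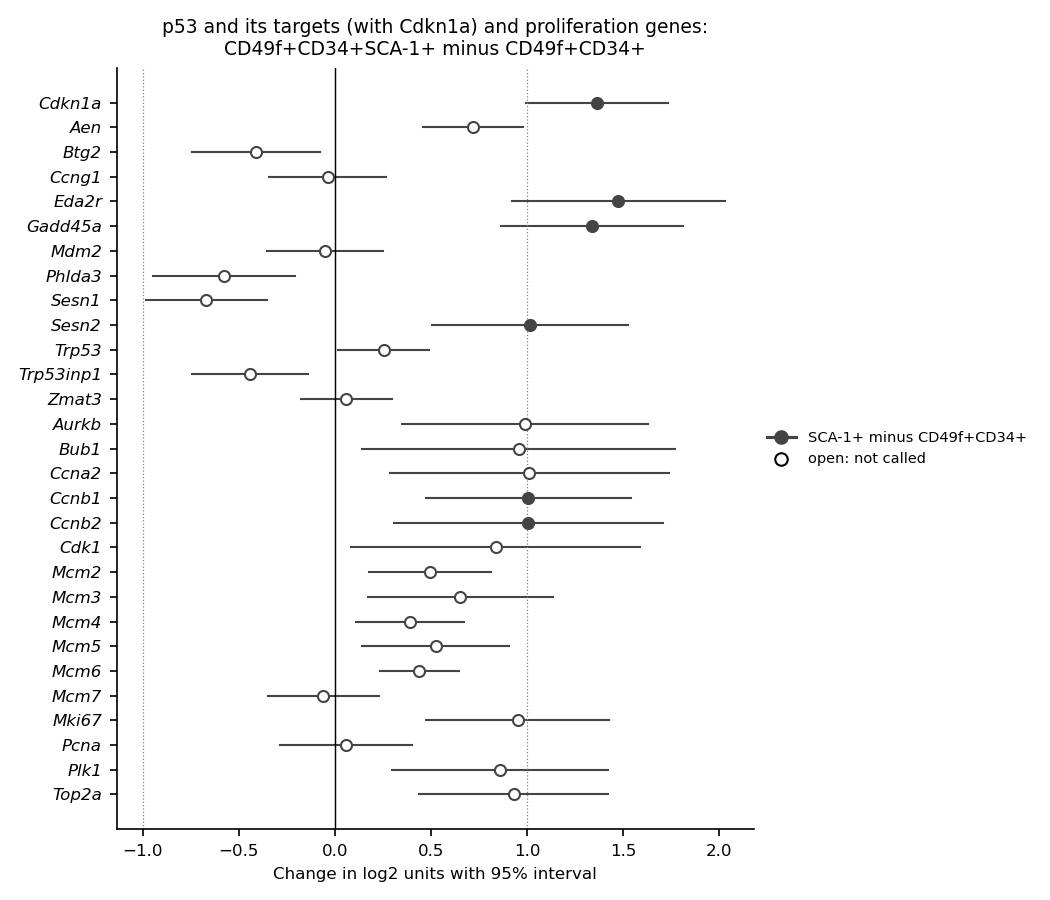
Log2 fold change from CD34+ to SCA-1+ cells with its 95% interval for Cdkn1a, 12 genes of p53 and its other targets (Aen to Zmat3) and 16 proliferation genes (Aurkb to Top2a). Filled points were called, which are Cdkn1a, Eda2r, Gadd45a and Sesn2 at the top and Ccnb1 and Ccnb2 below, and the p53 targets lie on both sides of 0.

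For the 3 genes called between the populations, the 2 genes with the most similar pattern over the 11 libraries were found by the mean absolute difference of centred log2 CPM. For *Cdkn1a*, whose own mean deviation from its centre was 0.70, these were *Zc3h12a* (0.13) and *Ovol1* (0.13). *Sult2b1* (0.22) and *Dgkh* (0.28) were closest to *Cdkn2b* (own deviation 0.80), and *Gm11266* (0.19) and *Tekt2* (0.22) to *Cdkn1c* (own deviation 1.01). These values describe likeness over the same libraries and were not tested.

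By position on GRCm38, *Cdkn1a* (ENSMUSG00000023067) lies on chromosome 17 from 29090976 to 29100727, *Cdkn1c* (ENSMUSG00000037664) on chromosome 7 from 143458339 to 143461050 and *Cdkn2b* (ENSMUSG00000073802) on chromosome 4 from 89306299 to 89311039. *Cdkn2a* lies next to *Cdkn2b*, from 89274471 to 89294653 on the same strand. *Cdkn2b* was detected in every library at 65 to 318 counts, and *Cdkn2a* at 0 to 43.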

How the data were processed

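Libraries were made with the TruSeq v2 kit, which does not mark strand, and the paper's methods name STAR and featureCounts with mm10 and the Ensembl release 96 annotation. The deposited files hold the authors' raw counts per gene, and the strand setting is not given in the sources used here. The row outside the Ensembl genes (up to 0.0307% of counts) was left out of totals and tests. All 11 libraries were fitted with 1 mean per group in R 4.3.3 with edgeR 4.0.16 (TMM, filterByExpr, glmQLFit, glmQLFTest). Of 55536 genes 20307 were tested, and adjusted p-values run over all of them. DESeq2 1.42.0 was an alternative, and limma 3.58.1 was loaded with edgeR. Python 3.11.15, pandas 2.3.3 and matplotlib 3.10.9 made tables and figures. CPM of genes use TMM-scaled totals, and RPKM divide them by the exon length of the GENCODE annotation on GRCm38 that matches Ensembl 96. CPM of the row outside the Ensembl genes use the total of counts on genes without that scaling.

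Depth was 17409131 to 46542177 counts, and the median distance from a log2 fold change to the end of its 95% interval was 0.71 between populations, 0.94 between tdT+ and tdTneg CD34+ cells and 1.04 between tdT+ and tdTneg SCA-1+ cells. The labels give an age and a number of pooled mice per library but not which mice were used. The study's methods describe 3 biological replicates of 2 mice each, from which the 4 populations were sorted, so that libraries with 1 number were read as a pair from shared mice. Once group means were removed, the median correlation was 0.08 over 15 same-numbered pairs (-0.42 to 0.59) and -0.02 over 30 others, and 7 of 11 libraries correlated best with one of their own number. The study's methods name no such block, which stayed an alternative, and its values stand beside results where it changed a call. The 10 genes, the 7 lists of related genes and the marker lists were chosen with earlier results of these data known. Genes named outside the 10 were the called genes of those lists (at most 4 per list and comparison, with the largest change) and the 2 genes most like each gene called between populations. *Cdk4*, *Trp53*, *Mdm2*, *Sesn1*, *Phlda3*, *Ezh2*, *Foxo1*, *Foxo3* and *Mki67* were named after their values were seen. Alternatives were DESeq2, RLE size factors, filters of 1 count in any and 10 counts in every library, omission of the fold threshold, a block for the replicate number, a fit of the compared groups alone, a fit on population alone and omission of each library. The fit was tested on simulated counts.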

Additional observations from a re-analysis of the deposited data

Results flagged for a closer look

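The row outside the Ensembl genes, which took no part in the comparisons, held 133.29 CPM at its lowest and 307.4 at its highest in 5 of the 6 tdT+ libraries, against at most 4.89 CPM in the tdTneg libraries. It drew attention as a signal outside the measured genes that was above its level in the tdTneg cells. The library labelled tdT+CD49f+CD34+ replicate 2 held 37 counts of it, or 2.05 CPM, and it also had the highest *Cdkn1a* of the 6 CD34+ libraries (179 CPM) and among them the highest summed endothelial (441 CPM), IFE (3323 CPM), Langerhans cell (347 CPM) and T cell markers (108 CPM). The reason was not tested.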

How the results depend on the processing

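No value of a called gene changed its direction under any of the alternatives, and the replicate number as a block changed no call of the 10 genes. With the block 2262 genes in place of 2347 were called between the populations, and of the 10 genes 2 were higher and 1 lower in SCA-1+ cells (*Cdkn1a* 1.40, *Cdkn2b* 1.44, *Cdkn1c* -1.84). Where the text gives the call of a related gene or a marker and the block changed it, that change is named with the result. Over all genes DESeq2 called 3143 in place of 1715 genes between the populations within tdT+ and 2051 in place of 963 within tdTneg cells, 332 in place of 2 and 1124 in place of 470 between tdT+ and tdTneg cells in CD34+ and SCA-1+ cells, and 772 in place of 79 for the difference of tdT effects. In the order of the last 3, a filter of 1 count in any library gave 166, 885 and 568, that of 10 counts in every library 20, 557 and 263, and RLE size factors 5, 478 and 117. The fit of the compared groups alone gave 1452 within tdTneg cells, 0 for tdT in CD34+ and 885 in SCA-1+ cells, the block 4 for tdT in CD34+ cells, and omission of the fold threshold 3917 between the populations. A filter of 10 counts in every library removed *Cdkn1c* and *Cdkn2a*, which left 0 genes called lower and 1 called within tdT+ cells. Within tdTneg cells DESeq2 and both other filters called 2 genes (*Cdkn2b* in addition), and within SCA-1+ cells DESeq2 called 1 between tdT+ and tdTneg, *Cdkn1c*. Without 1 library each, the number called higher was 1 to 2, lower 0 to 1, within tdT+ cells 1 to 2 and within tdTneg cells 0 to 2. The fall to 1 higher and to 0 within tdTneg cells came without tdTneg CD49f+CD34+SCA-1+ replicate 1, the fall to 0 lower without its replicate 2 and the fall within tdT+ cells without tdT+CD49f+CD34+ replicate 1, while omission of tdTneg CD49f+CD34+ replicate 1 gave the 2 within tdTneg cells. Over all genes, omission of 1 library gave 1160 to 2510 calls between the populations, 1174 to 2233 within tdT+ and 55 to 1300 within tdTneg cells, 0 to 7 and 97 to 700 between tdT+ and tdTneg in CD34+ and SCA-1+ cells, and 1 to 376 for the difference of tdT effects, against which shares of all genes should be read. Shifts beyond 1.5 times in the other comparisons came without tdTneg CD49f+CD34+SCA-1+ replicates 1 (1160, 55, 240 and 20, in the order of populations, tdTneg cells, tdT in SCA-1+ cells and difference) or 2 (1483, 420, 97 and 1), without tdTneg CD49f+CD34+ replicates 1 (510 within tdTneg, 23 for the difference) or 3 (216 and 31), without tdT+CD49f+CD34+SCA-1+ replicates 1 (267 for tdT in SCA-1+ cells, 36 for the difference) or 3 (268 and 47) and without tdT+CD49f+CD34+ replicate 3 (376 for the difference). The 2 calls for tdT in CD34+ cells became 0 without replicate 2 of tdT+CD49f+CD34+, replicate 3 of tdTneg CD49f+CD34+, replicate 3 of tdT+CD49f+CD34+SCA-1+ or either tdTneg CD49f+CD34+SCA-1+ library, 1 and 5 without replicates 1 and 2 of tdTneg CD49f+CD34+, and 7 without replicate 1 of tdT+CD49f+CD34+SCA-1+. Of the related genes called between the populations, *Gadd45a*, *Eda2r*, *Cbx6* and *Cbx8* stayed called in all 11 omissions, *Cdk6* in 7, *Sesn2* and *Ccnb1* in 6 and *Ccnb2* in 2. Within tdT+ cells *Cdk6*, *Cbx6* and *Cbx8* stayed called in 11, *Gadd45a* in 10, *E2f2* and *Fbxw7* in 7 and *Sesn2* in 4. Within tdTneg cells *Eda2r* stayed called in 10, *Cbx8* in 8 and *Gadd45a* in 4, and *Cbx6* between tdT+ and tdTneg SCA-1+ cells in 7. A group left with 1 library is assumed to vary like the others. RLE size factors moved the median of all genes by -0.12 in the difference of tdT effects and by less than 0.1 in the other comparisons. *Cdkn1c* in tdT+ SCA-1+ cells and *Cdkn2a* throughout rest on few counts, which limits what their values can show. The cause of these changes was not tested, other than fewer genes or libraries in the fit.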
